A study of Mus musculus with 91 samples.

Results

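Ribosome biogenesis genes encode the proteins that transcribe, modify, cut and fold ribosomal RNA and assemble it with ribosomal proteins. The list held 44 such genes, given by symbol, and 43 of them had a transcript cluster (the probe set of 1 gene on the array) annotated to that gene alone. Only *Noc2l* had none. All 43 passed the limit on low values, among 15316 genes and 16820 transcript clusters tested.

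The genes were followed in cells sorted from fetal mouse gonads on Affymetrix Mouse Gene 1.0 ST arrays, with 3 arrays for each combination of lineage, sex and stage (embryonic days E11.5, E12.5, E13.5). Germ cells were sorted with *Oct4-EGFP* from gonads that kept the mesonephros. Supporting cells (Sertoli cells in XY gonads, granulosa cells in XX gonads) were sorted with *Sry-EGFP*, except at E12.5 and E13.5 in XY gonads, where *Sox9-ECFP* was used, so that later XY against XX comparisons and the XY step to E12.5 also change the reporter. XY interstitial and XX stromal cells were sorted with 1 reporter line in both sexes. Endothelial cells were sorted with *Flk1-mCherry*, from gonads with part of the mesonephros at E11.5 and without it later. These are 24 groups and 72 arrays, and 18 further arrays of XY and XX cells sorted with *αSma-EYFP* at the same stages were read separately. Reporter males were mostly crossed to CD-1 females, and XY and XX gonads were pooled apart from 1 or more litters, so p-values measure the spread between such pools. A reporter defines each lineage, so lineage and reporter cannot be told apart.

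Most germ and endothelial markers set their sorts apart. *Pou5f1*, a germ cell factor, lay between 9.80 and 11.19 (log2 intensity, the unit of all levels here) in germ arrays and at 7.43 or below elsewhere. *Cdh5*, an endothelial adhesion molecule, lay between 11.22 and 12.24 in endothelial arrays and at 9.11 or below elsewhere. *Kit*, another germ cell marker, did overlap, at 8.75 to 10.42 in germ arrays and 8.54 to 9.32 in endothelial arrays. Supporting and interstitial or stromal sorts shared markers. *Wt1*, a factor of supporting cells, ran 10.71, 11.21 and 11.61 (lowest, median, highest) in supporting arrays, against 9.57, 11.03 and 11.29 in interstitial and stromal arrays. A list of 9 supporting cell markers was alike only across the sexes at E12.5, with means of 8.30 (XX supporting) and 8.32 (XY interstitial). Within each sex it set these sorts apart at that stage without overlap of arrays. XX stromal arrays averaged 7.94, below the XX supporting ones, and XY supporting arrays averaged 9.12, above the XY interstitial ones. *Amh*, the Sertoli cell hormone, ran 5.79, 6.13 and 10.04 over the supporting arrays of both sexes together. In interstitial and stromal arrays it ran 5.68, 6.00 and 8.13. *Pdgfra*, a receptor of interstitial and stromal cells, did separate the sorts in both sexes together, at 6.76 to 9.93 in supporting arrays and 10.17 to 11.52 in interstitial and stromal arrays. *Foxl2*, a granulosa cell marker, stayed at 6.61 or below in every array. Endothelial sorts were mixed: a Leydig cell marker list averaged 10.91, 10.46 and 10.75 in the XY E13.5 endothelial arrays, against 5.66, 5.49 and 5.63 in the XX ones. Macrophage, red blood cell and germ cell marker lists averaged 7.96, 9.45 and 7.62 in XY endothelial cells at E13.5 and 7.46, 8.33 and 7.03 in XX ones. In XY interstitial cells of that stage these lists averaged 6.21, 6.85 and 6.18. No array stood apart in its median, which ran between 6.555 and 6.811 over all arrays. In the methods of the study, an XY endothelial array of the earliest stage, not named there, is called a mild outlier whose RNA amplified poorly. In bulk sorted cells, fewer cells of a type and less RNA per cell cannot be told apart.

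Ribosome assembly starts in the nucleolus, where RNA polymerase I transcribes the ribosomal DNA. The transcript is modified by small nucleolar ribonucleoproteins (snoRNPs), and the small subunit forms on it inside a large particle, the 90S processome. Precursors of the small and large subunits (40S and 60S) then mature apart and leave the nucleus. Growing and dividing cells express these genes at high levels, and Myc proteins, which bind the letters CACGTG (the E-box), are known activators of many of them.

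Promoters were looked up for that E-box, since the genes moved together in the comparisons below. RefSeq windows of 300 bases (250 before and 50 after the annotated start, build GRCm38.p6) were found for 36 of the 43 genes. CACGTG, which reads the same on both strands, occurred for 8 of these genes (22.2%), against 12 of 46 other ribosome biogenesis genes (26.1%), 5 of 43 ribosomal protein genes (11.6%), 1314 of 12074 genes tested (10.9%) and 8.09% of all 27025 genes with a window. A gene with several starts has several windows and counts once. Each match is shown with up to 12 bases on either side, 5′ to 3′ along the gene's own strand, with the E-box in capitals.
*Imp4* (chr1:34439696-34439725, plus strand): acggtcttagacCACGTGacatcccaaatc
*Nop2* (chr6:125131811-125131840, plus strand): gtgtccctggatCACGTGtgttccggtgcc
*Utp20* (chr10:88826765-88826789, minus strand): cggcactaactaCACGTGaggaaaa
*Pes1* (chr11:3963965-3963994, plus strand): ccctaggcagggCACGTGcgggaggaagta
*Mybbp1a* (chr11:72441355-72441376, plus strand): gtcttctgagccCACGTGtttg
*Tsr1* (chr11:74898092-74898121, plus strand): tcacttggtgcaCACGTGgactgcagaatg
*Utp18* (chr11:93885769-93885798, minus strand): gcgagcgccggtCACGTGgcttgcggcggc
*Wdr43* (chr17:71616220-71616249, plus strand): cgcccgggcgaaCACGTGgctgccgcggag
Of these, *Nop2* (a ribosomal RNA methyltransferase), *Utp20*, *Mybbp1a*, *Tsr1* and *Wdr43* return below among the genes that were higher in XY than in XX germ cells at E13.5. They are 5 of the 8 genes with the E-box. Of the 28 genes with a window and no E-box, 16 were higher there as well. A match shows only that the letters are present.

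Germ cells stood above every somatic lineage. Averaged over the 43 genes, XY germ cells lay at 10.12 ± 0.04, 10.13 ± 0.01 and 10.09 ± 0.02 over the stages E11.5, E12.5, E13.5 (SD, n = 3 arrays each). XX germ cells lay at 10.07 ± 0.05, 9.92 ± 0.03 and 9.53 ± 0.02 over the same stages. The XY value was level, while the XX value was lower at each later stage. Every germ array, the XX ones at E13.5 included, was above the highest somatic array at 9.30.

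Somatic groups ran close together. XY interstitial cells had the highest somatic mean, 9.27 at E11.5, and XX endothelial cells the lowest, 8.76 at E12.5. XY supporting cells lay at 9.01, 9.16 and 9.14 over the stages and XX supporting cells at 8.81, 8.85 and 8.79. In the order of the 24 groups, the first 4 are XY germ E12.5, E11.5 and E13.5 and XX germ E11.5, whose arrays overlap. XX germ cells at E12.5 and then at E13.5 follow without overlap with their neighbours, and most neighbours further down overlap. The *αSma-EYFP* groups had means between 9.01 and 9.23, inside the somatic range.

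**Figure D1:**
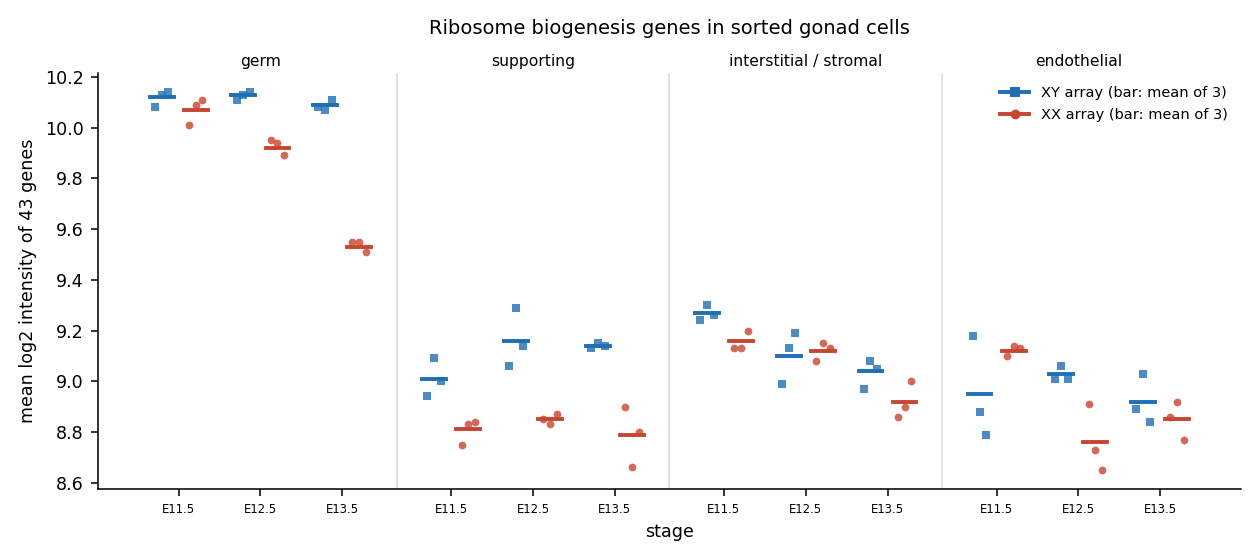
Mean log2 intensity of the 43 ribosome biogenesis genes in each array (points, 3 per group) by lineage, sex and stage. XY germ cells stay near 10.1 at all 3 stages, XX germ cells fall to 9.53 at E13.5, and no somatic array passes 9.30.

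Among single genes, 40 of 43 had their highest group mean in a germ group. The exceptions were *Polr1a* (highest in XY supporting cells at E13.5, 9.64), *Imp3* (XX endothelial cells at E11.5) and *Rrs1* (XY supporting cells at E11.5). In 16 genes every germ array lay above every somatic array, as in 4.55% of all clusters (1.83% lay wholly below). They were *Polr1b*, *Fbl*, *Dkc1*, *Heatr1*, *Wdr43*, *Wdr75*, *Utp18*, *Utp20*, *Nop14*, *Ddx10*, *Tsr1*, *Rrp12*, *Ddx27*, *Ebna1bp2*, *Rrp1b* and *Ddx21*. The lowest group was a supporting group in 20 genes, an endothelial group in 16, a stromal group in 5 and XX germ cells at E13.5 in 2 (*Imp3* and *Bop1*). The range of the 24 group means had a median of 1.67 over genes, wide against a median SD within groups of 0.13.

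**Figure D2:**
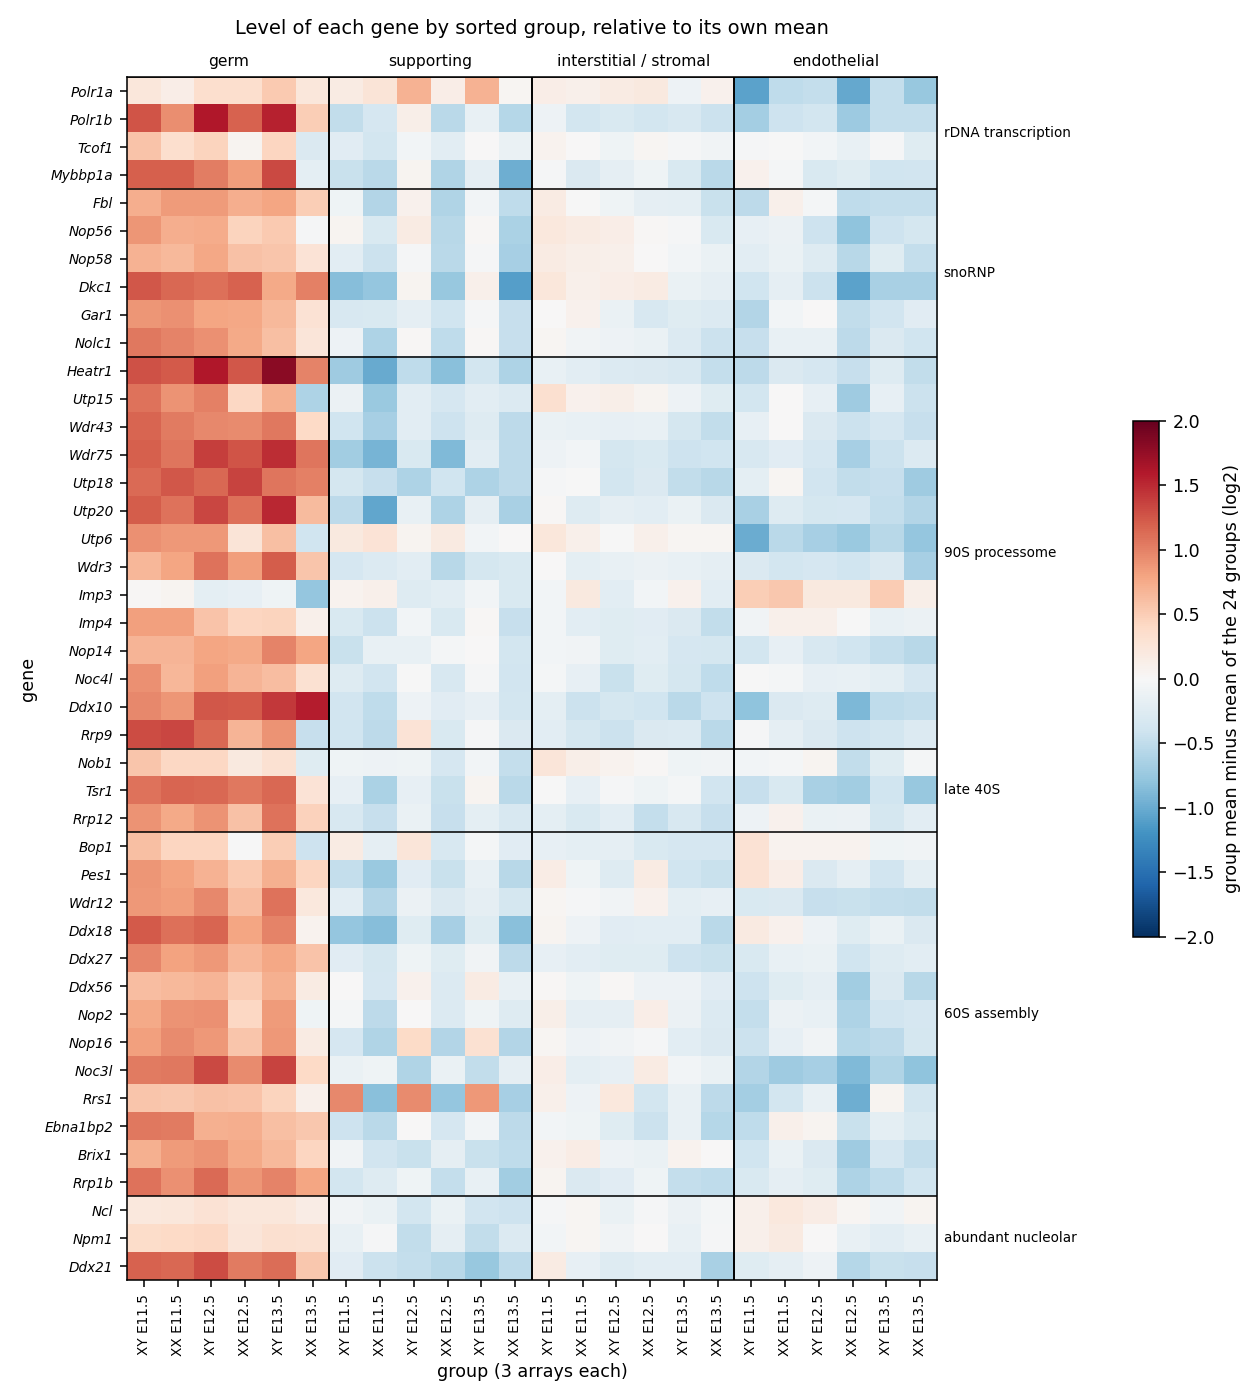
Group means of the 43 genes (one gene per line, ordered by role) in the 24 groups, each shown as its log2 difference from that gene's mean over groups. The germ columns are high for nearly all genes, the XX germ E13.5 column is the palest of them, and *Imp3*, *Polr1a* and *Rrs1* break the pattern.

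Germ cells were compared with the mean of the other 3 lineages at each stage, XY and XX weighted equally (limma, Benjamini-Hochberg adjustment over all tested clusters, with a call at an adjusted p under 0.05). Higher calls were made for 42, 42 and 42 of 43 genes over the 3 stages, where 30.6%, 31% and 31.3% of all clusters were called higher. Lower calls numbered 0, 0 and 1, where 32%, 32.9% and 31% of all clusters were called lower. The median difference was 1.08, 1.00 and 0.87 on the log2 scale. The 6 germ arrays and 18 other arrays did not overlap for 37 genes at E11.5, 29 at E12.5 and 25 at E13.5, all with germ cells above. Of all clusters, 11.7%, 12% and 9.74% had germ arrays wholly above and 5.81%, 6.01% and 5.65% wholly below.

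By role, the 4 genes of ribosomal DNA transcription were all higher in germ cells at each stage. *Polr1b*, the second largest subunit of RNA polymerase I, had the widest range of the class, 2.32 over the 24 group means. Its germ arrays at E12.5 ran 8.63, 8.97 and 9.25 (lowest, median, highest), against 6.66, 7.17 and 7.78 in the other lineages. The germ arrays lay wholly above the rest. *Polr1a*, the largest subunit, was called higher in germ cells with smaller differences of 0.33, 0.40 and 0.46 and with overlapping arrays.

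All 6 snoRNP genes were higher in germ cells at each stage: *Fbl*, *Nop56* and *Nop58* of the methylating box C/D particles, *Dkc1* and *Gar1* of the pseudouridylating box H/ACA particles, and *Nolc1*, which accompanies both. *Dkc1*, the pseudouridine synthase, had the widest range, 2.34. Its arrays at E11.5 ran 10.58, 10.68 and 10.86 in germ cells, against 7.93, 9.30 and 9.83 in the other lineages, with no overlap. Supporting and endothelial cells held its lowest arrays, both at 7.93, and interstitial and stromal arrays were at 9.24 or above.

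The 90S processome held the largest germ differences. *Heatr1*, the counterpart of yeast Utp10 that joins ribosomal DNA transcription to early processing, ran 10.31, 10.40 and 10.54 in germ arrays at E11.5, against 8.03, 8.80 and 9.27 elsewhere. At E12.5 it ran 10.36, 10.56 and 10.85, against 8.29, 8.79 and 9.04, and at E13.5 9.98, 10.52 and 11.06, against 8.50, 8.75 and 8.98. The groups never met. The differences were 1.73, 1.87 and 1.83 ± 0.07 (SE), or 3.32-, 3.67- and 3.55-fold, with adjusted p of 5e-28, 1.6e-29 and 4.7e-29 (limma).

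*Wdr75*, which acts with *Heatr1* in the first steps on the transcript, ran 11.10, 11.18 and 11.31 in germ arrays at E12.5, against 8.61, 9.50 and 9.94. The difference was 1.80 (3.47-fold, limma adjusted p = 8.1e-23) with no overlap. *Ddx10*, a helicase, ran 11.60, 11.70 and 12.06 in germ arrays at E13.5, against 9.46, 9.90 and 10.27, a difference of 1.90 ± 0.11 (3.74-fold, adjusted p = 2e-22, limma). *Rrp9*, a protein of the U3 snoRNP that guides early cleavage, ran 8.42, 8.63 and 8.88 in germ arrays at E11.5, against 6.67, 6.98 and 7.87. Its difference there was 1.60 ± 0.10 (3.02-fold, limma adjusted p = 7.2e-21), and at E13.5 its germ arrays, from 6.68 to 8.22, overlapped the others.

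*Imp3*, another U3 snoRNP protein, went the other way. Endothelial cells held it highest, between 9.68 and 10.79 over all stages with a median of 10.36. It passed no limit in germ cells at E11.5 (−0.18, adjusted p = 0.23, limma) or E12.5 (−0.13, adjusted p = 0.40), and at E13.5 it was lower in germ cells by 0.45 (adjusted p = 0.0021). The germ arrays there ran 8.76, 9.60 and 10.07, against 9.11, 9.97 and 10.74, and overlapped.

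Of the late 40S factors, *Nob1* (the endonuclease of the last cut), *Tsr1* and *Rrp12*, all 3 were higher in germ cells at each stage. *Tsr1* had the widest range, 1.92, and its germ arrays at E11.5 ran 10.32, 10.42 and 10.62, against 8.55, 9.06 and 9.41. All 13 genes of 60S assembly were higher as well, among them *Pes1*, *Bop1* and *Wdr12*, which form 1 complex. *Noc3l*, with the widest range at 2.24, ran 9.57, 9.68 and 9.84 in germ arrays at E11.5, against 7.65, 8.46 and 8.91.

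Among the abundant nucleolar genes, *Npm1* and *Ncl* differed little between groups, while *Ddx21* did not share this. *Npm1* and *Ncl*, which bind ribosomal RNA and shuttle between nucleus and cytoplasm, averaged 12.45 and 11.93 over the 72 arrays, and *Ncl* had the narrowest range of group means, 0.70. *Npm1* in germ arrays at E13.5 ran 12.71, 12.76 and 12.81, against 11.92, 12.27 and 12.47, a difference of 0.53 (limma adjusted p = 5.3e-15). *Ddx21*, an RNA helicase of the nucleolus in the same class, had a wider range of 2.06, and its germ arrays lay above all somatic arrays. *Bop1*, of the 60S class, averaged 6.90 (arrays from 6.17 to 7.64).

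**Figure D3:**
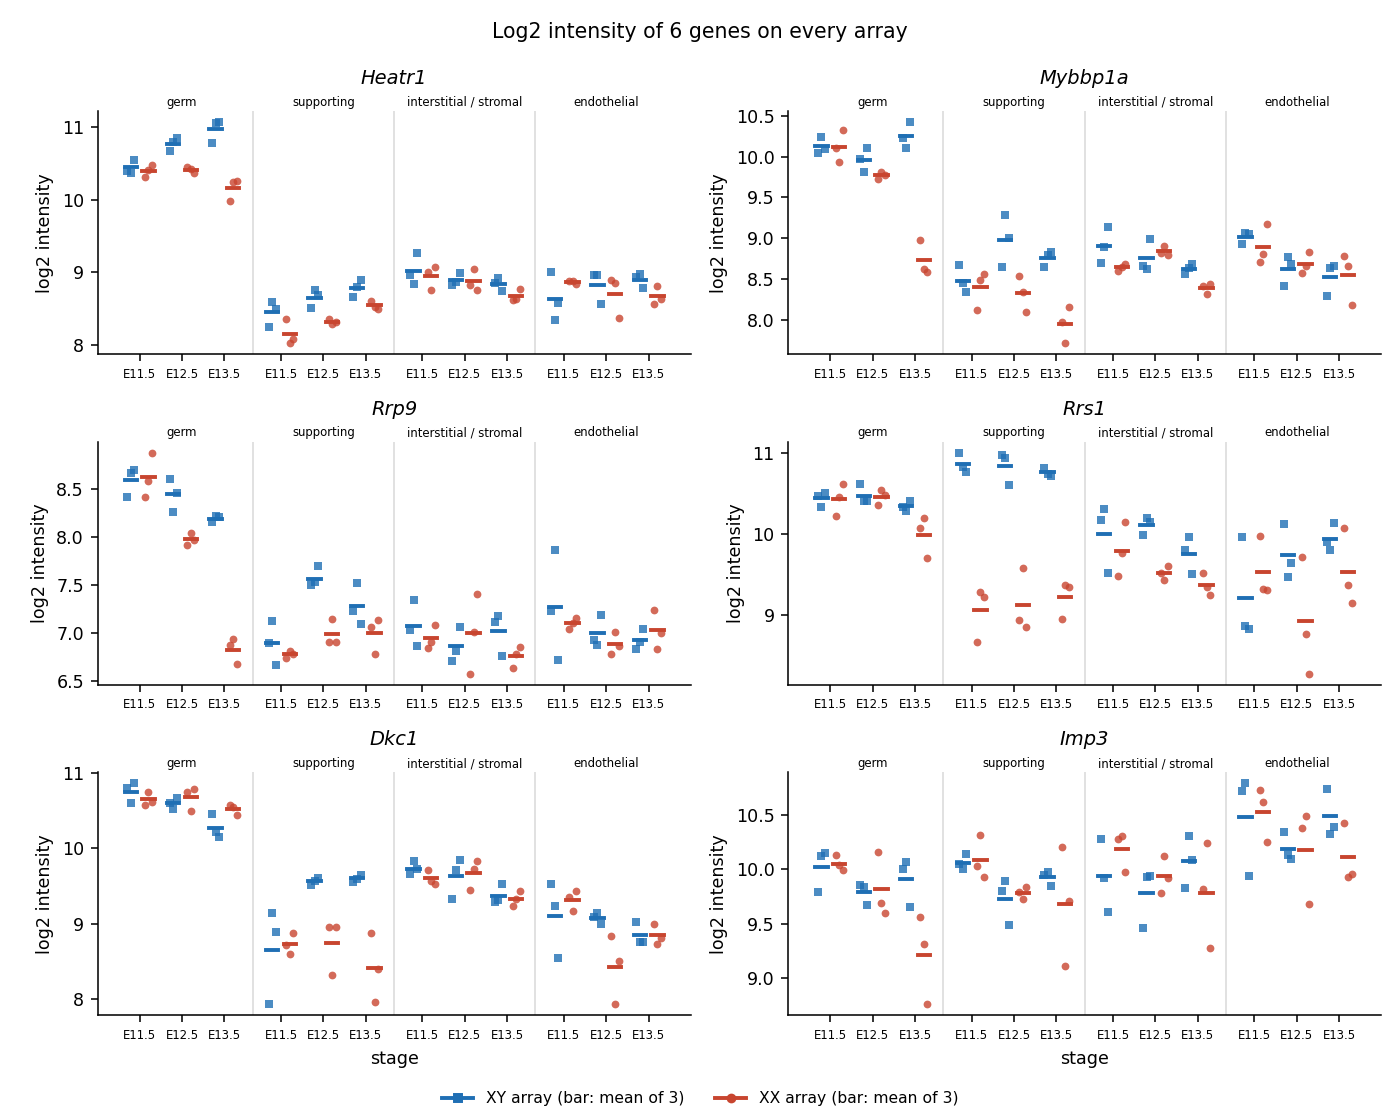
Log2 intensity of *Heatr1*, *Mybbp1a*, *Rrp9*, *Rrs1*, *Dkc1* and *Imp3* in each array of the 24 groups (points), with the group mean. *Heatr1* and *Dkc1* are highest in germ cells at all stages, *Mybbp1a* and *Rrp9* drop in XX germ cells by E13.5, *Rrs1* separates XY from XX supporting cells from E11.5 on, and *Imp3* is highest in endothelial cells.

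Each somatic lineage was set against the other 3 in the same way, and since germ arrays are among the others, these contrasts share arrays with the one above. Germ cells stood above all somatic groups, so lower calls in a somatic lineage are partly built in. Such calls do not show a lineage to be low among somatic cells. XY interstitial cells at E11.5 had the highest somatic mean, 9.27. Supporting cells had 1, 1 and 1 higher and 38, 33 and 28 lower calls over the stages, where 27.8%, 22.9% and 23.8% of clusters were called higher and 27.4%, 23.4% and 21.4% lower. The single higher gene was *Polr1a* each time. Interstitial and stromal cells had 1, 0 and 1 higher and 16, 23 and 25 lower calls (20.9%, 18.2% and 16.6% of clusters higher, 29.1%, 28% and 23.3% lower). Endothelial cells had 2, 2 and 1 higher and 32, 37 and 30 lower calls (24.4%, 29.4% and 20.2% of clusters higher, 28.8%, 30.1% and 28.3% lower). *Imp3* was higher in endothelial cells at each stage, *Ncl* at E11.5 and E12.5.

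Among the genes low in a somatic lineage without overlap, *Pes1* was lower in supporting cells at E11.5 by 0.97 (limma adjusted p = 4.5e-10). *Ncl* was lower there at E13.5 by 0.43 (adjusted p = 2e-13). Endothelial cells had less *Utp6*, a processome component, at E11.5 (−1.19, adjusted p = 5e-16) and E12.5 (−0.94, adjusted p = 1.9e-12). They also had less *Polr1a*, by −0.95, −1.07 and −0.87 over the stages (adjusted p of 2.4e-11, 6.8e-13 and 4.8e-10).

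At E11.5, the comparison of XY with XX germ cells called 0 of 43 genes (limma), where 0.0832% of clusters were higher and 0.119% lower in XY, and 2 genes were higher in XY at an unadjusted p under 0.05. At E12.5 the calls were 2 higher and 0 lower in XY germ cells (1.71% and 2.77% of clusters). *Tcof1*, which encodes treacle, a cofactor of RNA polymerase I, read 8.48, 8.44 and 8.49 in XY arrays, against 8.16, 8.02 and 8.06 in XX arrays (+0.39, limma adjusted p = 0.011). *Utp6* read 8.85, 8.85 and 9.04 in XY arrays, against 8.29, 8.15 and 8.50 in XX arrays (+0.60, adjusted p = 0.019). Both were separated without overlap. The count of 2 lay between 0 and 3 as each array was left out (0 without XX germ E12.5 replicate 2) and was 6 in a fit of the compared groups alone.

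At E13.5, 25 of 43 genes were higher in XY than in XX germ cells and 0 were lower, where 10.9% of clusters were higher and 10.1% lower. The median difference over the genes was 0.54 on the log2 scale, against 0.02 over all clusters. The higher genes came from every role: 3 of 4 in ribosomal DNA transcription, 3 of 6 in snoRNPs, 8 of 14 in the processome, 3 of 3 late 40S factors, 7 of 13 in 60S assembly and 1 of 3 abundant nucleolar genes (*Ddx21*).

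*Mybbp1a*, a nucleolar protein that binds RNA polymerase I and takes part in ribosomal RNA processing, differed most. Its XY germ arrays at E13.5 read 10.23, 10.11 and 10.42, against 8.98, 8.63 and 8.59 in XX germ arrays. The lowest XY array was above the highest XX array by more than 1 log2 unit. The difference was 1.52 ± 0.15 (SE; 2.86-fold, adjusted p = 5.2e-12, limma).

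*Rrp9* read 8.16, 8.22 and 8.21 in XY germ arrays, against 6.88, 6.94 and 6.68 in XX germ arrays, a difference of 1.36 ± 0.17 (2.57-fold, adjusted p = 6.6e-09, limma). *Utp15*, a processome protein of the same early complex as *Heatr1*, read 9.50, 9.96 and 9.78, against 8.45, 8.35 and 8.46 (1.33 ± 0.21, 2.51-fold, adjusted p = 1.5e-06). In both genes the sexes were fully separated. *Polr1b* followed, with XY arrays at 9.10, 9.15 and 9.08, against XX arrays at 8.41, 7.78 and 7.97 (+1.06, limma adjusted p = 7.9e-07).

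Further down, *Tsr1*, a GTPase-like 40S assembly factor, read 10.41, 10.35 and 10.62 in XY germ arrays, against 9.49, 9.70 and 9.57 in XX germ arrays (+0.87, limma adjusted p = 1.7e-08). *Noc3l*, a 60S factor known in yeast also for DNA replication, read 9.81, 10.02 and 10.18, against 8.99, 9.24 and 8.93 (+0.95, adjusted p = 3.5e-07). *Wdr12* read 10.93, 10.63 and 10.84, against 9.82, 10.02 and 9.94 (+0.87, adjusted p = 3.4e-07). All 25 called genes had XY arrays wholly above XX arrays. They were called on these same arrays, so much of this separation is built in. The share of all clusters separated in this way was not counted, and the separation is listed without a reading.

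Of the 18 genes without a call, *Dkc1* (−0.26, adjusted p = 0.46, limma) and *Ddx10* (−0.15, adjusted p = 0.70) had negative differences, and *Npm1* (+0.02), *Utp18* (+0.06), *Ebna1bp2* (+0.07) and *Ncl* (+0.08) were nearest to 0. *Nolc1* (adjusted p = 0.045) was just inside the limit and *Nop58* (adjusted p = 0.050) just outside it. With the E-box in the promoter window, 5 of 8 genes were called higher in XY, and without it 16 of 28. Marker lists were read in the same arrays. A germ cell marker list averaged 11.11, 11.04 and 10.93 in XY germ arrays at E13.5, against 10.95, 10.95 and 10.84 in XX germ arrays. A supporting cell marker list averaged 7.15, 6.93 and 6.90 in XY germ arrays, against 6.66, 6.58 and 6.50 in XX germ arrays, and its part in the result was not tested.

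**Figure D4:**
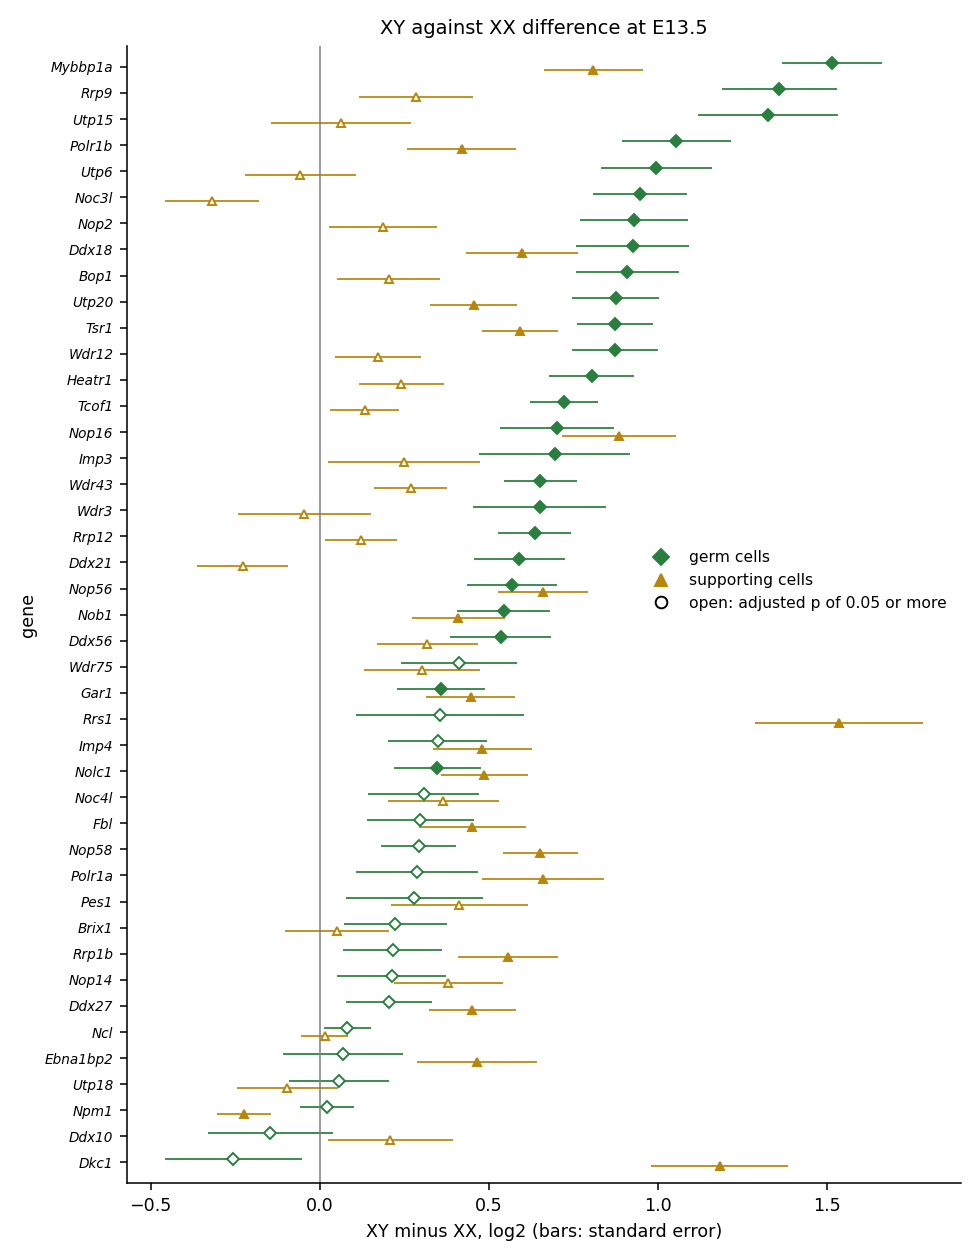
XY minus XX difference at E13.5 (log2, with standard error) for each of the 43 genes in germ cells (diamonds) and supporting cells (triangles), filled where the adjusted p was under 0.05. Germ differences reach 1.52 in *Mybbp1a*, *Rrs1* and *Dkc1* lie far to the right in supporting cells only, and most genes lie right of 0 in both.

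The difference at E13.5 came with a fall in XX germ cells. At E13.5 against E12.5, 18 genes were lower in XX germ cells and 0 higher (5.84% and 4.92% of clusters), with a median difference of −0.38. All 18 were among the 25 above, but both comparisons use the same XX germ E13.5 arrays, so part of this overlap is built in. *Rrp9* read 6.88, 6.94 and 6.68 at E13.5, against 7.92, 8.05 and 7.97 at E12.5 (−1.15 ± 0.17, adjusted p = 1.2e-06, limma). *Mybbp1a* read 8.98, 8.63 and 8.59 at E13.5, against 9.73, 9.81 and 9.78 (−1.04 ± 0.15, adjusted p = 5.3e-07). The stages did not overlap. *Tsr1*, *Ddx18* (a 60S helicase) and *Polr1b* were lower by 0.78, 0.72 and 0.69. This count was 11 without XX germ E13.5 replicate 3 and 8 under the limits of the study (an unadjusted p-value below 0.05 with a fold above 1.5).

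The earlier XX step, E12.5 against E11.5, had 0 higher and 2 lower calls (3.44% and 2% of clusters), *Rrp9* at −0.65 and *Utp6* at −0.61. XY germ cells had no call in either step. At E12.5 against E11.5, 1.79% of clusters were higher and 1.94% lower, and 4 genes were higher and 0 lower at an unadjusted p under 0.05. At E13.5 against E12.5, 3.69% of clusters were higher and 2.98% lower, and 0 genes were higher and 1 lower at an unadjusted p under 0.05. *Mybbp1a* shows the contrast: its 6 germ arrays at E11.5 ran 9.93 to 10.33, and its XY germ arrays at E13.5 were still between 10.11 and 10.42.

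The growth of the XY against XX difference was itself tested. Between E11.5 and E13.5 it increased in 18 genes of germ cells and decreased in 0 (4.74% and 4.37% of clusters). *Mybbp1a* had the largest increase, 1.51 (limma adjusted p = 3.4e-07), followed by *Rrp9* at 1.40, *Utp15* at 1.15 and *Nop2* at 1.07. These values use the same E13.5 arrays as the sex comparison.

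Supporting cells differed by sex from E11.5 on. At that stage, 7 genes were higher in XY and 0 lower (5.67% and 3.92% of clusters): *Fbl*, *Nolc1*, *Utp15*, *Utp20*, *Tsr1*, *Nop2* and *Rrs1*. A day later 18 were higher and 3 lower (16.9% and 13.8% of clusters, median difference 0.31), and at E13.5, 19 were higher and 1 lower (14.7% and 14.7%, median difference 0.37). The reporter is the same in both sexes only at E11.5. The E11.5 count was 4 without XX supporting E11.5 replicate 1, 1 in a fit of the compared groups alone and 2 under the limits of the study. A Leydig cell marker list averaged 6.92, 7.22 and 7.27 in XY supporting arrays at E13.5, against 5.84, 5.72 and 5.72 in XX ones, and its part in these results was not tested.

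*Rrs1*, a 60S assembly factor known in yeast for bringing in the 5S ribonucleoprotein, differed most at every stage. At E11.5 it read 11.00, 10.83 and 10.76 in XY supporting arrays, against 8.66, 9.28 and 9.22 in XX ones (1.81 ± 0.25, 3.51-fold, adjusted p = 1.9e-07, limma). At E12.5 it read 10.97, 10.94 and 10.60, against 8.93, 9.58 and 8.85 (1.72, 3.29-fold, adjusted p = 1.2e-07). At E13.5 it read 10.81, 10.74 and 10.72, against 8.95, 9.37 and 9.34 (1.54, 2.90-fold, adjusted p = 1.4e-06). XY arrays were at least 1 log2 unit above XX arrays throughout, with XY supporting cells above all germ arrays at E11.5.

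Outside supporting cells, *Rrs1* germ arrays lay between 9.70 and 10.62. In endothelial cells at E12.5, where it was called higher in XY, it read 10.12, 9.46 and 9.64 in XY arrays, against 9.71, 8.76 and 8.27 in XX arrays, with overlap.

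*Dkc1*, the only gene of the list on the X chromosome, became different after E11.5. XY supporting arrays read 7.93, 9.14 and 8.89 at E11.5, against 8.72, 8.60 and 8.88 in XX, and the sexes overlapped. At E12.5 they read 9.51, 9.56 and 9.61, against 8.95, 8.32 and 8.96 (0.82, 1.76-fold, adjusted p = 0.0012, limma), and at E13.5 9.55, 9.59 and 9.65, against 8.88, 7.96 and 8.40 (1.18 ± 0.20, 2.27-fold, adjusted p = 4.1e-06). The later stages were without overlap.

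*Nop16*, a 60S assembly factor, read 9.71, 10.15 and 10.00 in XY supporting arrays at E12.5, against 8.85, 8.91 and 9.19 in XX (0.97, 1.96-fold, limma adjusted p = 5.3e-06). At E13.5 it read 9.85, 9.86 and 9.93, against 9.11, 8.71 and 9.15 (0.89, 1.85-fold, adjusted p = 2.8e-05). All XY arrays exceeded all XX arrays. At E11.5, *Nolc1* read 9.55, 9.19 and 9.04 in XY, against 8.78, 8.57 and 8.85 (0.52, adjusted p = 0.0031), and *Utp20* 8.06, 8.13 and 8.18, against 7.37, 7.62 and 7.84 (0.51, adjusted p = 0.0047).

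By role, the higher genes at E13.5 were 6 of 6 in snoRNPs, 3 of 4 in ribosomal DNA transcription, 2 of 3 late 40S factors and 6 of 13 in 60S assembly, but 2 of 14 in the processome (*Imp4* and *Utp20*). *Polr1a* read 9.47, 9.79 and 9.67 in XY supporting arrays, against 9.20, 8.94 and 8.81 in XX (+0.66, limma adjusted p = 0.0034). *Nop56*, a box C/D core protein, read 10.44, 10.52 and 10.69, against 10.20, 9.56 and 9.91 (+0.66, adjusted p = 6.5e-05). Neither overlapped.

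Of the 3 abundant nucleolar genes, 0, 2 and 1 were lower in XY supporting cells over the stages and 0 higher. Of all clusters, 3.92%, 13.8% and 14.7% were lower and 5.67%, 16.9% and 14.7% higher. With 3 genes, the counts are listed without a reading for the class. *Npm1* read 12.01, 11.96 and 11.89 in XY arrays at E12.5, against 12.30, 12.22 and 12.26 in XX (−0.31, limma adjusted p = 0.0019). At E13.5 it read 11.92, 11.95 and 11.97, against 12.10, 12.35 and 12.06 (−0.22, adjusted p = 0.027). *Ncl* at E12.5 read 11.66, 11.46 and 11.56, against 11.79, 11.78 and 11.78 (−0.22, adjusted p = 0.010), and at E13.5 its difference was +0.02 (adjusted p = 0.90). *Ddx21* had differences of +0.20, +0.07 and −0.23 (adjusted p of 0.46, 0.74 and 0.21). The called differences were without overlap, as was that of *Noc3l* at E12.5, with 7.91, 8.21 and 8.00 in XY, against 8.63, 8.43 and 8.50 (−0.48, adjusted p = 0.0057).

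Over time, XY supporting cells had 8 higher and 3 lower genes at E12.5 against E11.5 (12.6% and 9.22% of clusters), the step that changes the reporter. *Dkc1* (+0.91, limma adjusted p = 6e-04) and *Nop16* (+0.72, adjusted p = 0.0011) increased. *Npm1* (−0.35, adjusted p = 0.00086) and *Ncl* (−0.30, adjusted p = 0.0010) decreased. At E13.5 against E12.5 there were 0 higher and 0 lower calls (0.749% and 0.88% of clusters). XX supporting cells had 1 higher (*Utp20*) and 0 lower calls in the first step (3.99% and 2.6%) and 0 higher and 1 lower (*Ncl*) in the second (0.82% and 0.678%). An interstitial and stromal marker list averaged 6.79, 7.18 and 7.05 in XY supporting arrays at E12.5, against 7.79, 7.80 and 7.90 at E11.5, and its part in the XY step was not tested.

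The XY against XX difference of supporting cells grew between E11.5 and E13.5 in 5 genes and shrank in 0 (6.62% and 6.79% of clusters): *Dkc1* (+1.26, limma adjusted p = 0.0011), *Polr1a*, *Mybbp1a*, *Nop14* and *Rrp1b*. Without XX supporting E13.5 replicate 2 the count was 1.

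Setting both lineages side by side at E13.5, 10 genes were higher in XY in both: *Ddx18*, *Gar1*, *Mybbp1a*, *Nob1*, *Nolc1*, *Nop16*, *Nop56*, *Polr1b*, *Tsr1* and *Utp20*. They are 10 of the 19 higher in supporting cells and 10 of the 25 higher in germ cells. Of the other genes, 9 were higher in supporting cells only, 15 in germ cells only and 9 in neither. How many of all clusters were higher in both was not counted, so the overlap is listed without a reading. The difference between lineages was tested directly: the XY against XX difference was larger in supporting than in germ cells for 2 genes and smaller for 13 (13.6% and 13.7% of clusters). The larger ones were *Dkc1* (+1.44, limma adjusted p = 7.2e-05) and *Rrs1* (+1.18, adjusted p = 0.0081). *Dkc1* lies on the X chromosome, and the part of X chromosome number in its XY against XX differences was not tested.

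The smaller ones included *Noc3l* (−1.27, limma adjusted p = 7.8e-07), which read 8.17, 8.19 and 8.09 in XY supporting arrays, against 8.80, 8.14 and 8.46 in XX ones. *Utp15* (−1.26), *Rrp9* (−1.08) and *Utp6* (−1.05), all processome genes, followed. *Ddx21*, *Nop2*, *Mybbp1a*, *Bop1*, *Wdr12*, *Polr1b*, *Tcof1*, *Heatr1* and *Rrp12* made up the rest. For *Mybbp1a* and *Polr1b* the XY level was called higher in both lineages, but by less in supporting cells.

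XY interstitial against XX stromal cells gave 0, 0 and 2 higher and 0, 0 and 0 lower calls over the stages, where 0.196%, 3.07% and 5.14% of clusters were higher and 0.0416%, 2.85% and 3.53% lower. The 2 genes at E13.5 were *Tsr1* (+0.35) and *Ddx21* (+0.44). At an unadjusted p under 0.05, 4, 2 and 4 genes were higher and 0, 2 and 0 lower. No stage step of these cells had a call. In XY interstitial cells 1.97% of clusters were higher and 1.65% lower in the step to E12.5, and 0.987% and 0.309% in the step to E13.5. In XX stromal cells the shares were 1.03% and 0.993%, then 0.214% and 0.184%.

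The sex difference of interstitial and stromal cells changed between E11.5 and E13.5 in 0 genes (1.77% of clusters higher and 1.42% lower, and 0 genes at an unadjusted p under 0.05). *αSma-EYFP* cells had no call between XY and XX at any stage. Of all clusters there, 0.225%, 2.53% and 2.49% were higher and 0.0237%, 2.62% and 3.24% lower, and 0, 0 and 0 genes were higher and 0, 1 and 1 lower at an unadjusted p under 0.05 (limma).

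Endothelial cells gave calls that turned on single arrays. XY against XX had 0, 6 and 1 higher and 2, 0 and 0 lower calls over the stages (0.214%, 2.86% and 3.82% of clusters higher, 0.767%, 0.69% and 1.49% lower). The lower genes at E11.5 were *Fbl* and *Gar1*, and this count was 12 without XY endothelial E11.5 replicate 1 and 0 without any other array of the comparison. At E12.5 *Nob1* read 8.72, 8.56 and 8.66 in XY arrays, against 7.98, 8.25 and 8.10 in XX (+0.54, limma adjusted p = 0.014). *Gar1* read 9.69, 9.44 and 9.61, against 9.28, 8.83 and 9.12 (+0.51, adjusted p = 0.016), and *Ddx56* 8.85, 8.57 and 8.42, against 8.32, 8.24 and 7.73 (+0.52, adjusted p = 0.037). These were separated, but the count of 6 became between 1 and 13 as each array was left out and 0 in a fit of the compared groups alone.

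XX endothelial cells had 13 lower and 0 higher genes at E12.5 against E11.5 (2.88% and 1.36% of clusters), led by *Dkc1* (−0.89, limma adjusted p = 0.0042) and *Utp15* (−0.72, adjusted p = 0.031). XY endothelial cells had 5 higher and 0 lower (6.23% and 2.66%), among them *Gar1* (+0.58, adjusted p = 0.0021). The dissection changed at this step. The XX count lay between 4 and 19 and the XY count between 1 and 14 as each array was left out, and both were 0 in fits of the compared groups alone. At E13.5 against E12.5 neither sex had a call (0.226% of clusters higher and 0.101% lower in XX, 2.03% and 1.12% in XY). The change of the endothelial sex difference between E11.5 and E13.5 had 0 calls (2.08% higher, 0.523% lower), with 13 genes higher at an unadjusted p under 0.05 and 11 calls without XY endothelial E11.5 replicate 1. At E12.5 the Leydig marker list averaged 8.15 to 8.47 in XY endothelial arrays, against 5.47 to 5.64 in XX ones, and its part in these results was not tested.

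Other genes of the pathway moved alongside. Of 57 further ribosome biogenesis genes tested, 54, 53 and 46 were higher in germ cells than elsewhere over the 3 stages and 0, 0 and 1 lower. Of all clusters, 30.6%, 31% and 31.3% were higher and 32%, 32.9% and 31% lower. At E13.5, 36 were higher in XY than in XX germ cells and 0 lower (10.9% and 10.1% of all clusters), with a median difference of 0.49. *Ftsj3*, a ribosomal RNA methyltransferase, read 9.77, 9.87 and 9.94 in XY germ arrays, against 8.51, 8.63 and 8.65 in XX ones (+1.26), without overlap. *Ddx52* (+0.97) and *Nifk* (+0.95) followed. The XX germ step to E13.5 had 18 lower and 0 higher of the 57 (5.84% and 4.92% of all clusters).

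In supporting cells, 4, 16 and 16 of the 57 were higher in XY and 4, 2 and 1 lower over the stages (5.67%, 16.9% and 14.7% of all clusters higher, 3.92%, 13.8% and 14.7% lower). *Ftsj3* was higher there as well at E13.5, with XY arrays from 8.93 to 9.08, against XX arrays from 7.78 to 8.28 (+0.99). Of 9 further RNA polymerase I subunits and factors, 8, 7 and 7 were higher in germ cells and 0 lower. Of all clusters, 30.6%, 31% and 31.3% were higher there and 32%, 32.9% and 31% lower, and 10.9% were higher in XY than in XX germ cells at E13.5. At E13.5, 2 of the 9 were higher in XY than in XX germ cells: *Polr1e*, which read 8.30, 8.67 and 8.73, against 7.83, 7.71 and 7.49 (+0.89), and *Polr1c* (+0.65).

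Ribosomal protein genes, whose products the biogenesis factors assemble, differed less. Their list held 77 genes, and only the 54 with a cluster annotated to that gene alone were tested. Of these 54, 22, 22 and 26 were higher and 0, 3 and 3 lower in germ cells, but with median differences of 0.06, 0.08 and 0.09. The part of cluster choice in the smaller differences was not tested. Of all clusters, 30.6%, 31% and 31.3% were higher and 32%, 32.9% and 31% lower. Between XY and XX germ cells at E13.5, 1 was higher and 2 lower (10.9% and 10.1% of all clusters), with a median of 0.01. In XX germ cells at E13.5 against E12.5, 0 were called either way (4.92% of all clusters higher and 5.84% lower). In supporting cells 0, 1 and 6 were higher in XY (5.67%, 16.9% and 14.7% of all clusters) and 0, 9 and 3 lower (3.92%, 13.8% and 14.7%).

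**Figure D5:**
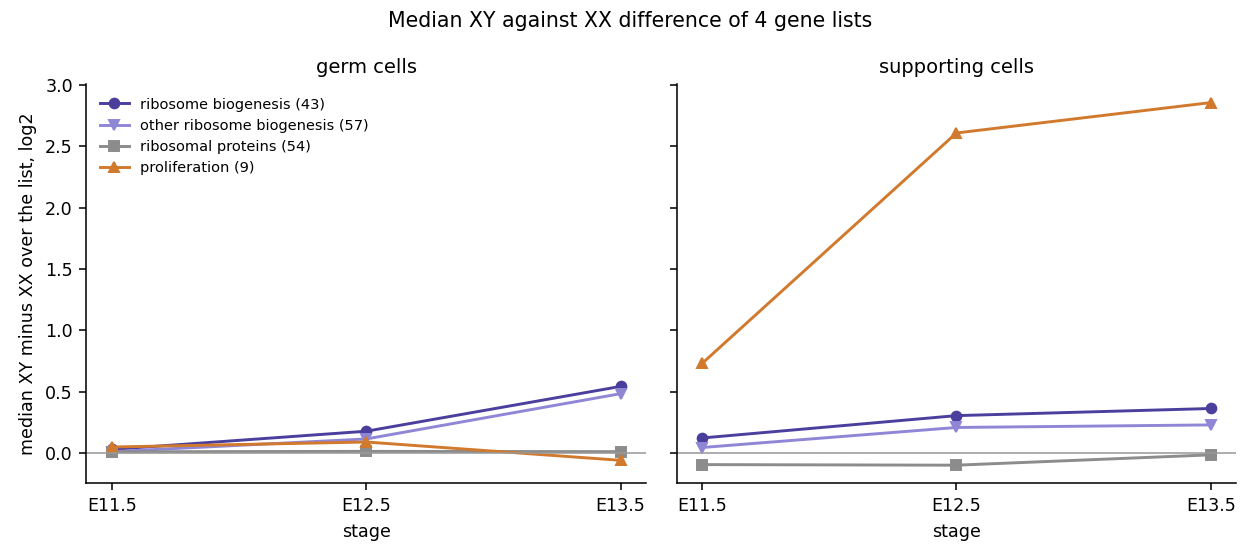
Median XY minus XX log2 difference of each gene list (the 43 genes, 57 other ribosome biogenesis genes, 54 ribosomal protein genes and 9 proliferation genes) between XY and XX cells at each stage, in germ cells (left) and supporting cells (right). The biogenesis lists lie near 0.5 for XY against XX germ cells at E13.5 while ribosomal protein and proliferation genes lie near 0, and in supporting cells proliferation genes lie far above all other lists.

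Proliferation genes were followed because growth and division often go together. Of 9 tested, 9 were higher in germ cells than elsewhere at each stage (30.6%, 31% and 31.3% of all clusters), with medians of 1.09, 1.09 and 1.02. Between XY and XX germ cells at E13.5, however, 1 was higher and 1 lower (10.9% and 10.1% of all clusters). These were *Aurkb*, a mitotic kinase, higher by 0.60, and *Mcm5*, a replication helicase subunit, at −0.47. *Mki67*, a marker of cycling cells, read 9.84, 9.63 and 9.64 in XY germ arrays, against 9.85, 9.80 and 9.86 in XX ones.

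In supporting cells all 9 proliferation genes were higher in XY at E12.5 and E13.5, and 5 at E11.5, with medians of 0.73, 2.61 and 2.85 over the stages. Of all clusters, 5.67%, 16.9% and 14.7% were higher in XY over the stages. *Mki67* read 9.30, 9.56 and 9.31 in XY supporting arrays at E13.5, against 6.36, 6.14 and 6.42 in XX ones (+3.08). *Cdk1* (+3.31) and *Top2a* (+3.22), a mitotic kinase and a topoisomerase, differed as much. The list averaged 9.72, 9.88 and 9.71 in XY, against 7.75, 7.36 and 7.45 in XX. The part of cycling in the supporting cell differences of the 43 genes was not tested.

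Between lineages, *Myc* was lowest in germ cells, where the biogenesis genes were highest. Its arrays ran 6.02, 6.73 and 7.11 (lowest, median, highest) in germ cells, against 7.30, 8.16 and 8.69 in supporting cells, 7.92, 8.67 and 9.13 in interstitial and stromal cells and 8.64, 9.70 and 11.09 in endothelial cells. No germ array reached any other array. Germ cells were lower by −2.34, −2.07 and −1.92 at the 3 stages (limma adjusted p of 7.7e-22, 1.1e-19 and 2.3e-18), or 5.06-, 4.20- and 3.78-fold. Among the germ groups this order did not hold. *Myc* read 6.02, 6.48 and 6.37 in XX germ arrays at E13.5, the germ group with the lowest biogenesis mean (9.53). In XY germ arrays at E12.5, the group with the highest biogenesis mean (10.13), it read 6.78, 6.75 and 6.68. The part of *Myc* in the biogenesis levels was not tested.

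*Mycn*, its close relative, was slightly higher in germ cells (+0.41, +0.28 and +0.20), with germ arrays from 7.59 to 8.55 overlapping the other arrays at 7.07 to 8.32. Between XY and XX germ cells at E13.5, neither passed the limit: *Myc* read 6.99, 6.72 and 6.69, against 6.02, 6.48 and 6.37 (+0.51, limma adjusted p = 0.12), and *Mycn* 7.97, 7.91 and 7.85, against 8.07, 7.59 and 7.66 (+0.14, adjusted p = 0.62). Of the 9 Myc family genes tested, 2 were called higher in XY and 1 lower in this comparison (10.9% and 10.1% of all clusters). The lower one was *Mxd4*, which encodes a protein that competes with Myc for its partner Max. It read 7.55, 7.96 and 7.95 in XY, against 8.66, 8.54 and 8.54 in XX (−0.76, limma adjusted p = 1.1e-04), without overlap. The 2 genes called higher are not described here. Calls in the family went both ways, so no direction for Myc activity is read from *Mxd4*. In supporting cells at E13.5, *Myc* was lower in XY by 0.59 (adjusted p = 0.049) and *Mycn* differed by +0.35 (adjusted p = 0.056).

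The 43 genes varied together. Over the 24 group means, the median Pearson correlation among their 903 pairs was 0.85, and 865 pairs were above 0. Lineage held a median of 75.3% of a gene's variance over the arrays. These points share the lineage and its reporter, so the values describe the table and carry no test. *Fbl*, *Wdr12* and *Ddx18* each have another cluster on the array that tracked the one used (r of 0.95, 0.98 and 0.97 over the 24 means).

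Outside all lists, the genes whose 24 group means were most like the mean of the 43 were *Nudc* (r = 0.985, with its other cluster at 0.978), *Shmt1* (0.983), *Mrpl15* (0.98), *Chchd4* (0.98), *Rbm8a* (0.976), *Urb2* (0.975), *Stip1* (0.973), *Xrcc5* (0.972) and *Eftud2* (0.972). Among these, *Urb2* group means reached from 7.65 to 10.16 and those of *Shmt1*, which encodes a serine hydroxymethyltransferase of 1-carbon metabolism, from 7.19 to 9.42.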

How the data were processed

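RNA from sorted cells was amplified with a NuGEN kit and hybridised to Affymetrix Mouse Gene 1.0 ST arrays. The authors normalised the scans by RMA (GCOS and Partek are named in the submitters' notes), and the deposited values are log2 intensities of 35557 transcript clusters on 91 arrays. The methods of the study describe a processing of all 91 arrays and another of 72, and which of them gave the deposited values is not stated. The array of a whole newborn mouse was not used. The name of the interstitial and stromal reporter is not reported here. Gene names came from the platform annotation, and 21789 clusters named 1 gene. A cluster was tested where it reached a log2 intensity of 6 in 2 of 3 arrays of some group. For genes with several clusters, the one with the highest mean over the 90 sorted-cell arrays was used. Array intensities can compress fold changes, and different probes cannot be compared in level, so values are compared between groups and not between genes.

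Differences were fitted in R 4.3.3 with limma 3.58.1 (lmFit, eBayes), with 1 mean per group over 72 arrays and 48 residual degrees of freedom. The *αSma-EYFP* contrasts came from a fit of 90 arrays (16859 clusters). P-values were adjusted by the Benjamini-Hochberg method over all tested clusters, and a call is an adjusted p under 0.05. The fit was tested on simulated data. The number of arrays, 3 per group, limits the precision. Alternatives were quantile normalisation, no filter, only the compared groups, the limits of the study, the mean of all clusters of a gene, a replicate block and leaving out each array. Replicate numbers were taken to pair the arrays where the deviations of same-numbered arrays correlated above 0.1 in all 3 pairs. That held only for XY against XX germ cells at E12.5 (r of 0.13, 0.135 and 0.208), and the block changed no count there. No 2 arrays held the same values (highest correlation 0.9943).

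Members and lists were chosen with earlier results of these data known. Genes named with all their arrays were, in each sex comparison with at least 5 calls, the 3 largest called differences without overlap in each direction, and in each lineage or stage comparison the 2 largest. The widest range of each role, the highest and lowest means, *Myc*, *Mycn*, up to 3 genes of each other list and the 10 clusters most like the members were also named. *Imp3*, *Polr1a*, *Tcof1*, *Utp6*, *Nop56*, *Polr1b*, *Tsr1*, *Noc3l* and *Wdr12* were added after their values were seen where they fall outside it.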

Additional observations from a re-analysis of the deposited data

Results flagged for a closer look

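In germ cells the XY against XX difference changed between E11.5 and E13.5 in 18 of 43 genes, by a test of the change itself (limma), all of them increases (4.74% of all clusters increased and 4.37% decreased). *Mybbp1a* (+1.51), *Rrp9* (+1.40) and *Utp15* (+1.15) led. In supporting cells the same change was called in 5 genes, all increases (6.62% and 6.79% of all clusters), of which *Dkc1* (+1.26) was the largest. That count lay between 1 and 7 as each array was left out, and was 1 without XX supporting E13.5 replicate 2. At E13.5 the XY against XX difference itself differed between supporting and germ cells in 15 genes, larger in supporting cells for *Dkc1* and *Rrs1* and smaller for 13 others (13.6% and 13.7% of all clusters).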

How the results depend on the processing

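Calls of germ cells against the other lineages, of XY against XX germ cells at E13.5 (25, between 20 and 25 as each array was left out) and of the change of that difference (18, between 13 and 17) were within 1.5 times under every alternative run, and no result changed direction. Under the limits of the study (an unadjusted p-value below 0.05 with a fold above 1.5), small differences dropped out: supporting against the other lineages had 17, 6 and 2 calls over the stages (39, 34 and 29 reported), endothelial 7, 15 and 9 (34, 39 and 31), interstitial and stromal 0, 0 and 1 (17, 23 and 26). XY against XX supporting cells had 2, 7 and 9 (7, 21 and 20), the XY supporting step to E12.5 had 4 (11), the XX supporting steps 0 and 0 (1 and 1), the XX germ step to E13.5 8 (18), the XX endothelial step to E12.5 6 (13) and to E13.5 1 (0), the XY endothelial step to E12.5 0 (5). XY against XX endothelial cells had 3 at E12.5 (6) and 0 at E13.5 (1), their change of the sex difference 6 (0), XY interstitial against XX stromal cells 1 at E12.5 (0) and 0 at E13.5 (2), and the XX stromal step to E13.5 1 (0).

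In fits of only the compared groups, with fewer degrees of freedom, XY against XX supporting cells at E11.5 had 1 call, the XY supporting step to E12.5 2, both XX supporting steps 0, XY against XX endothelial cells 0, 0 and 0, the XX and XY endothelial steps to E12.5 0 and 0, XY interstitial against XX stromal cells 1 at E12.5 and 1 at E13.5, XY against XX germ cells at E12.5 6 (2 reported) and the XY germ step to E12.5 1. Quantile normalisation and the mean of all clusters each gave 1 call in the XY endothelial step to E13.5, and quantile normalisation, no filter and the replicate block each gave 0 for XY against XX endothelial cells at E13.5. With the replicate block, XY interstitial against XX stromal cells at E13.5 had 1 call and the XX supporting step to E13.5 0, and no other count moved by over 1.5 times. Same-numbered arrays correlated above 0.1 in all 3 pairs only in XY against XX germ cells at E12.5. As a hint from the data, each array also correlated best with its own number at E11.5 in that comparison (r of 0.196, 0.234 and 0.076) and in the XX supporting step to E12.5 and the XY supporting and germ steps to E13.5 (lowest r of 0.021, 0.055 and 0.078).

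As each array was left out, calls ranged as follows. XY against XX endothelial cells had 0 to 12 at E11.5, 1 to 13 at E12.5 and 0 to 1 at E13.5, and their change of the sex difference 0 to 11. The XX endothelial steps had 4 to 19 and 0 to 3, the XY ones 1 to 14 and 0 to 3. XX germ steps had 0 to 3 and 11 to 17, XY against XX germ cells at E12.5 0 to 3. XX supporting steps had 0 to 3 and 0 to 1, XY against XX supporting cells at E11.5 4 to 7, and their change of the sex difference 1 to 7. XY interstitial against XX stromal cells at E13.5 had 0 to 2 and the XY interstitial step to E12.5 0 to 1. For single named genes, 674 refits gave the same call and 52 lost it. Where the construction of an alternative does not show it, the cause was not tested. With 3 arrays per group, differences small against a median SD of 0.13 were not detectable.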
